A study of Mus musculus with 27 samples.

Results

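Small numbers of cone photoreceptors were mixed into starburst amacrine cells, and the mixtures were compared with starburst cells alone. The comparison used 9 of the 27 arrays of the series, chosen by their labelled cell numbers: 3 arrays of 200 starburst cells with 0 cones, 3 of 150 starburst cells with 50 cones, and 3 of 125 starburst cells with 75 cones. The stated share of cones was therefore 0%, 25% and 37.5% of 200 cells. The question was which cone genes become detectable at such a share, in a series built to ask how array values follow the amount of RNA from a cell group. Starburst cells came from adult mice that carried 129S6-Chat_tm1(cre)Lowl/J together with the reporter Rosa26-LSL-RFP, so that cells with a Chat-driven Cre make red fluorescent protein. Cones came from adult Tg(Chrnb4-EGFP)1Gsat mice, in which cells with an active Chrnb4 transgene make green fluorescent protein. The labels give all 9 samples a background of C57BL/6J mixed with FVB/N-Swiss Webster hybrid, and they say that the hybrid mice carry a recessive mutation that causes photoreceptor degeneration. Retinas were pooled, 6 of the starburst line and 2 of the cone line, and cells were sorted by fluorescence, 200 to a tube. The design text says that the titration mixtures, which include the 0-cone and 50-cone groups, were sorted in triplicate, each time from other mice, and does not say this of the 75-cone group. Each cell type came from its own line, so cell type and line cannot be told apart. Fewer cells of a type and less RNA per cell cannot be told apart either. All values are log2 expression values, so a difference of 1 is a doubling.

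Cones detect bright light and colour. Light turns an opsin into its active form, the opsin activates the cone transducin Gnat2 with Gnb3 and Gngt2, and transducin relieves the cone phosphodiesterase Pde6c of its inhibitory subunit Pde6h. The enzyme breaks down cyclic GMP, which closes the channel made of Cnga3 and Cngb3. Arrestin (Arr3) and the calcium sensors Rcvrn and Guca1a then help to end the response. Starburst amacrine cells are inhibitory and cholinergic interneurons that shape direction selectivity, and they are not known to use this cascade. The photoreceptor factors CRX and OTX2 bind DNA with the core TAATC, most strongly as TAATCC.

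The upstream sequences of the 4 cone phototransduction genes that passed the test below are shown because these genes moved together. Each is the 250 bases before the start of the gene on the + strand, from RefSeq on build GRCm38.p6, with every TAATC on either strand in capitals (GATTA on the opposite strand). The regions are chrX:74127216-74127465 for Opn1mw, chr6:136954273-136954522 for Pde6h, chr3:108092816-108093065 for Gnat2 and chrX:100605247-100605496 for Arr3.
Opn1mw: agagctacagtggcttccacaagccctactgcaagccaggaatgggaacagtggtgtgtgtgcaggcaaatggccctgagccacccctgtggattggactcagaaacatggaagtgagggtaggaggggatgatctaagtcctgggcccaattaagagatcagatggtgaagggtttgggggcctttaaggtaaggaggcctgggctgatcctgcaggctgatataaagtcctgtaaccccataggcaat
Pde6h: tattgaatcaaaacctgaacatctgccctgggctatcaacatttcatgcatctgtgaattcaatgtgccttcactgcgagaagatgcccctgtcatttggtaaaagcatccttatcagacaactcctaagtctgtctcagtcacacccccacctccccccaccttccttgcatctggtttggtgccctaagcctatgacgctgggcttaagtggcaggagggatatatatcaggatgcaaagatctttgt
Gnat2: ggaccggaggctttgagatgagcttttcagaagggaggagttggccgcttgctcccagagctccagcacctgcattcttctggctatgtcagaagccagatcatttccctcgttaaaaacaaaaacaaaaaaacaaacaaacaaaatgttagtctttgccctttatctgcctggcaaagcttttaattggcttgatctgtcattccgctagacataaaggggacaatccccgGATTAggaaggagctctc
Arr3: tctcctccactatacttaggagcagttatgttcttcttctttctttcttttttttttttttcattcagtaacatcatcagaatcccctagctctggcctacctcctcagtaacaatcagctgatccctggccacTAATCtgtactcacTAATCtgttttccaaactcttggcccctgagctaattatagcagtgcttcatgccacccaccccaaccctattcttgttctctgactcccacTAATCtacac
The core stood 3 times before Arr3 and 1 time before Gnat2, where it was also the longer TAATCC, and 0 times before Opn1mw and Pde6h. Among 32851 RefSeq promoters cut to the same length, 19.8% held TAATC and 6.25% held TAATCC, which contains TAATC, on either strand. Of the 20 measured cone phototransduction genes 14 had an entry, and 8 and 5 of these held the shorter and the longer motif. A gene counted here if any of its listed starts held the motif, whereas the shares count each promoter, so the numbers cannot be compared directly. These matches describe letters in a window and no binding was measured.

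Replicate arrays of a group correlated at 0.957 to 0.974, and the array medians lay between 2.8 and 2.84. A gene was counted as above the detection level on an array where it exceeded 3.42, the 95th percentile of 1005 probe sets for olfactory receptors over the 9 arrays, whose median was 2.07. Replicate 3 of the 75-cone group stood apart from the other mixtures. Its mean over 11 cone markers was 4.66, against 6.54 to 7.13 on the other 5 mixture arrays, 3.06 to 4.08 on the starburst arrays and 7.15 to 8.48 on 3 arrays of 200 cones. Its starburst markers (mean of 8 genes 5.95) lay inside the range of the other mixtures, 5.88 to 6.15, and its rod markers (5.85) between those of the 75-cone and 50-cone arrays. The main counts, and the gene values it moves most, are given with and without it. Starburst arrays were not free of photoreceptor transcripts: 7 of 8 measured rod markers exceeded the detection level on all 3, with means of 5.70 to 6.24, and replicate 2 had the highest cone and rod means. Of the markers of other cells, 3 of 6 for Müller glia, 2 of 4 for horizontal cells, 1 of 5 for ganglion cells and 1 of 5 for microglia exceeded it on all starburst arrays, and 0 of 6, 0 of 4 and 0 of 4 for bipolar, vascular and pigment epithelium cells. The Müller glia mean was 4.31 to 4.80 on the starburst arrays and 3.88 to 5.12 on the mixtures, highest on 50-cone replicate 3. The part of these other cells in the results was not tested.

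**Figure D1:**
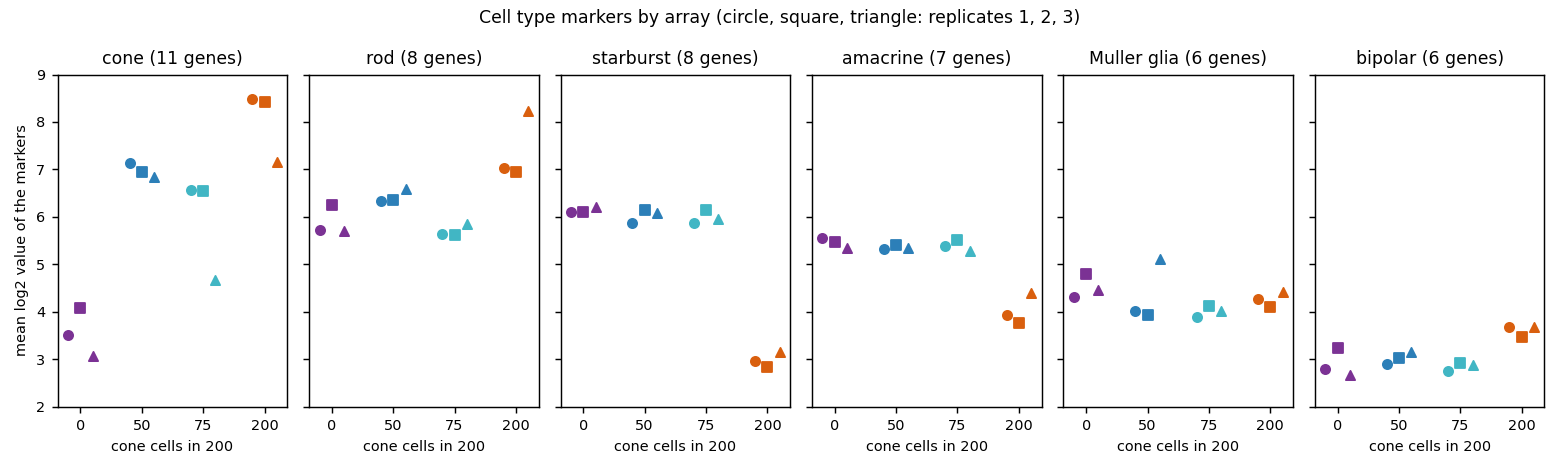
Mean log2 value of the measured markers of 6 retinal cell types (vertical axis) on each array with 0, 50, 75 or 200 cone cells in 200 (horizontal axis), where each point is 1 array and its shape the replicate number. Cone markers at 50 cones lie between 6.84 and 7.13, replicate 3 at 75 cones sits at 4.66, and starburst markers of the mixtures stay between 5.88 and 6.15.

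With 50 or 75 cones in the mixture 5 genes rose, and 4 of them belong to the cone cascade. Taking both mixtures together against starburst cells, limma called 9 of 12441 tested genes (0.0723%) at an adjusted p under 0.05 and a log2 difference of at least 1. Of these 5 were higher (0.0402% of the tested genes) and 4 lower (0.0322%), and the median over all tested genes was -0.01. The genes that rose were the medium-wave opsin Opn1mw, the phosphodiesterase inhibitor Pde6h, the cone arrestin Arr3, the cone transducin Gnat2, and Fam161a, a protein of the photoreceptor cilium. In all, 4 of 19 tested cone phototransduction genes passed in this direction. Against the same starburst arrays, 5 of the 19 passed at 50 cones alone, where 0.0482% of all tested genes were higher, and 2 at 75 cones alone (0.0161%). With the replicate number as a block 16 genes were called (12 higher, 0.0965%) over the 27 arrays and 4 (3 higher, 0.0241%) over the 9 arrays, and the cone phototransduction genes among them numbered 8 and 2. Without 75-cone replicate 3 the counts were 15 genes (12 higher, 0.0965%) and 9 cone phototransduction genes.

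The medium-wave opsin had the largest difference of the cascade. Opn1mw read 3.93, 6.04 and 3.94 on the starburst arrays, 9.96, 9.72 and 9.73 at 50 cones, and 9.57, 9.73 and 7.89 at 75 cones. All 6 mixtures lay above all 3 starburst arrays, and the difference was 4.80 ± 0.51 (SE from the fit, 6 against 3 arrays, adjusted p = 5.72e-05), or 27.8-fold. Against the same starburst arrays it was 5.17 at 50 cones (adjusted p = 0.000189) and 4.43 at 75 cones (0.00238). The call at 75 cones was lost in the fits of the 9 arrays alone (0.0676, and 0.108 with the replicate block). The short-wave opsin Opn1sw read 4.67, 5.68 and 2.82 without cones, 9.86, 9.36 and 9.25 at 50 cones, and 8.53, 8.57 and 4.98 at 75 cones. Replicate 3 at 75 cones fell inside the starburst range, and Opn1sw did not pass over both mixtures (4.03 ± 0.82, adjusted p = 0.0592). It passed at 50 cones alone (5.10, 0.042), without 75-cone replicate 3 (4.63, 0.00558) and with the replicate block over 27 arrays (0.00144).

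Of the transducin subunits, Gnat2 rose, by 4.0 ± 0.72 (adjusted p = 0.0179). It read 5.65, 4.81 and 3.24 on the starburst arrays, 9.58, 9.48 and 9.20 at 50 cones, and 8.54, 8.93 and 5.67 at 75 cones. The lowest mixture, at 5.67, barely cleared the highest starburst array, at 5.65. The call was lost without starburst replicate 2 (0.0689) or 3 (0.126), without 75-cone replicate 1 (0.0675) and in the fits of the 9 arrays alone (0.152, and 0.0545 with the replicate block). Gnb3, the cone beta subunit, read 2.77, 5.49 and 3.55 without cones, 8.34, 8.11 and 7.68 at 50 cones and 7.23, 7.79 and 5.47 at 75 cones. It overlapped by 1 array and did not pass (3.50 ± 0.69, adjusted p = 0.0514; 0.00336 with the block over 27 arrays, 0.0204 without 75-cone replicate 3). Gngt2, the cone gamma subunit, read 2.53, 3.06 and 2.52 without cones, 6.14, 5.74 and 5.75 at 50 cones and 5.42, 4.84 and 3.43 at 75 cones. Its groups did not overlap, and its difference of 2.52 ± 0.54 had an adjusted p of 0.0744 (0.00336 with the block over 27 arrays and 0.0291 without 75-cone replicate 3).

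Both subunits of the cone phosphodiesterase separated the groups, and the inhibitory one passed. Pde6h read 5.49, 5.55 and 4.76 without cones, 10.17, 10.17 and 9.90 at 50 cones, and 9.99, 9.12 and 7.74 at 75 cones. Its difference was 4.25 ± 0.51 (adjusted p = 0.000262), or 19-fold, and it also passed at 50 cones (4.81, 0.000307) and at 75 cones (3.69, 0.0141) alone. In the fits of the 9 arrays alone its call at 75 cones was lost (0.0543, and 0.095 with the replicate block). The catalytic subunit Pde6c read 2.76, 2.61 and 1.98 without cones, 6.62, 6.45 and 6.24 at 50 cones, and 6.28, 6.00 and 3.43 at 75 cones. All of its mixtures were above all starburst arrays, but the difference of 3.38 ± 0.78 had an adjusted p of 0.133 (0.00336 with the block over 27 arrays and 0.0375 without 75-cone replicate 3). That error pools the spread within all groups of the 27 arrays. It was 0.54 in the fit of the 9 arrays alone (adjusted p = 0.125) and 0.75 without 75-cone replicate 3.

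The end of the cascade and its recovery gave mixed values. The channel subunit Cnga3 lay between 2.25 and 2.72 on all 9 arrays, under the detection level, and it was no more than 3.05 even with 200 cones. Cngb3, its partner, was not above the detection level on any starburst array and was above it on 4 of 6 mixtures (1.06 ± 0.62, adjusted p = 0.811). The arrestin Arr3 read 3.45, 5.20 and 3.54 without cones, 8.82, 8.67 and 9.04 at 50 cones and 8.25, 8.46 and 5.75 at 75 cones. It rose by 4.10 ± 0.69 (adjusted p = 0.0118), or 17.2-fold. That call was lost without starburst replicate 1 (0.0863) or 3 (0.0756) and in the fits of the 9 arrays alone (0.0859, and 0.0746 with the block). Of the calcium sensors, Guca1a was already high in starburst arrays at 8.69 to 9.71 and differed by 1.12 ± 0.29 (adjusted p = 0.227; 1.40 and 0.00379 without 75-cone replicate 3). Rcvrn, which rods also express, differed by 1.26 ± 0.38 (0.353).

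The remaining cascade members had small differences, and none passed. Pdc, which binds transducin beta and gamma subunits in rods and cones, differed by 0.32 ± 0.14 (adjusted p = 0.665). The kinase Grk1 (0.00 ± 0.28) and the GTPase-activating pair Rgs9 (0.01 ± 0.29) and Rgs9bp (0.03 ± 0.12) lay between 2.61 and 3.75 on the 9 arrays. Gnb5, their partner, differed by -0.18 ± 0.19, the cyclase Gucy2e by 0.24 ± 0.18 and the exchanger Slc24a2 by 0.09 ± 0.26, and none of these passed. The cyclase Gucy2f did not reach the level needed for testing. Over the 19 tested genes the median difference was 1.12, against -0.01 over all tested genes, and 7 had all mixtures above all starburst arrays (12 without 75-cone replicate 3). Such a separation was met by 1.67% of all tested genes (2.60% without that array).

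**Figure D2:**
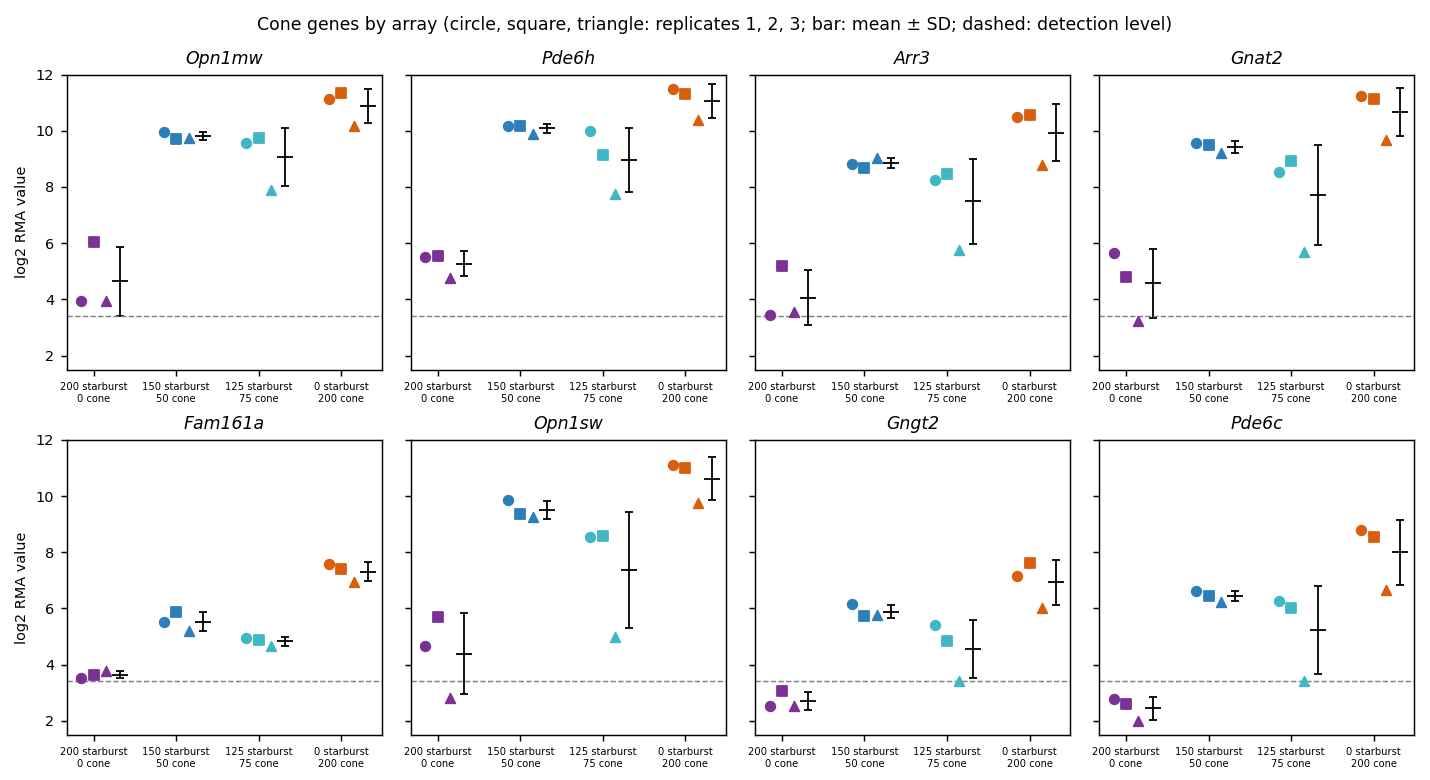
Log2 values of 8 genes (vertical axis) on each array of the 3 groups compared and of 200 cones (horizontal axis), with the replicate as the point's shape, the mean and SD of each group beside the points and the detection level of 3.42 as a dashed line. Opn1mw, Pde6h, Arr3, Gnat2 and Fam161a passed the test, and for Gngt2 and Pde6c the starburst arrays lie under the dashed line and all mixtures above it, with replicate 3 at 75 cones at 3.43.

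Detection and the test picked different genes. Opn1mw, Pde6h, Arr3 and Fam161a exceeded the detection level on all 3 starburst arrays and Gnat2 on 2 of them, so they could not count as newly detectable. Fam161a on all 3 and Arr3 on 2 of these arrays stood close to that level. Of the genes that rose, only Pde6h also exceeded the stricter level of 4.74, used below, on all 3 starburst arrays. Counted as newly detectable were genes above the level on all 6 mixtures and on no starburst array, and 8 of 12441 (0.0643%) met this. They were Gngt2, Pde6c, Arhgdib, Crxos, Gckr, Ppm1j, Olfr479 and Tbc1d15, of which the last 2 read only 3.64 and 3.63 with 200 cones. None of the 8 passed the test over both mixtures (adjusted p from 0.0744 for Gngt2 to 0.829 for Tbc1d15). Crxos, Gckr, Olfr479 and Tbc1d15 were named after their values were seen. With the 50-cone arrays alone 51 genes (0.41%) became detectable, with the 75-cone arrays alone 18 (0.145%), and without 75-cone replicate 3 15 (0.121%). Asking for fewer arrays can only keep or raise such a count. At the stricter level of 4.74, the 99th percentile of olfactory receptors, 0 genes became detectable over all 6 mixtures. That count rested on 75-cone replicate 3. Gngt2, Pde6c, Ppm1j and Hspb6 were among the genes above 4.74 on every other mixture, with lowest values of 4.84, 6.0, 5.57 and 5.36. Their highest starburst values were 3.06, 2.76, 3.41 and 3.4. This criterion carries no test. In the limma fit 856 of the 12441 genes had an unadjusted p under 0.05.

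The genes that control photoreceptor identity showed small differences. Of 12 tested transcription factors 0 passed, and their median difference was 0.13. Neurod1, used by several retinal neurons, was above all starburst arrays (9.06 to 9.08) on all mixtures (9.10 to 9.51), a difference of 0.28 ± 0.15 (adjusted p = 0.774). Rxrg, a retinoid receptor of cones, was above as well (0.67 ± 0.54, 0.872), with 0 starburst arrays and 4 mixtures over the detection level. Crx, the photoreceptor homeobox factor, differed by 0.41 ± 0.19 (0.71), and Otx2 by -0.04 ± 0.20 (0.989). Rax read 5.08, 5.59 and 4.83 at 50 cones and 3.70, 3.42 and 3.12 at 75 cones, against 3.01, 4.19 and 3.99 without cones (0.56 ± 0.45, 0.873). Nrl, the rod factor, differed by 0.18, Sall3 by 0.29, Rora by 0.00, Rorb by -0.19, Mef2c by 0.08, Mef2d by 0.08 and Samd7 by -0.07, none past the threshold. Thrb, the receptor that directs medium-wave opsin expression, and Prdm1, Casz1 and Esrrb did not reach the level needed for testing.

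Among genes of the outer segment and its transport, 1 of 25 tested rose. Fam161a read 3.52, 3.64 and 3.76 on the starburst arrays, 5.52, 5.87 and 5.19 at 50 cones and 4.95, 4.88 and 4.65 at 75 cones. The groups were far apart relative to their spread, and the difference of 1.54 ± 0.20 had an adjusted p of 0.000804. It was 0.0509 with the replicate block over the 9 arrays and 0.12 with the 6 mixtures as 1 group. At 75 cones alone the difference was 1.19 with an adjusted p of 0.0574, or 0.00717 with the replicate block over 27 arrays. Replicate 3 at 75 cones, at 4.65, stood close to the other two arrays of its group for this gene. Unc119, a lipid-binding transport protein of photoreceptors, read 8.74 to 9.28 without cones and differed by 0.36 ± 0.22 (0.816). No ribbon synapse gene of 15, visual cycle gene of 12 or rod gene of 13 passed over both mixtures. In the visual cycle list the retinoid carrier Rbp3, named after its values were seen, differed by 1.54 ± 0.40 (adjusted p = 0.247) and passed with the replicate block over 27 arrays (0.0174). In the rod list, the phosphodiesterase subunit Pde6g had all mixtures above all starburst arrays (0.96 ± 0.20, adjusted p = 0.0744; 1.05 and 0.0351 without 75-cone replicate 3), and the arrestin Sag differed by 0.97 ± 0.24 (0.186).

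Most cone genes had a lower mean at 75 cones than at 50, though none of the differences passed the test. The direct comparison of the 2 mixtures, which uses no starburst array, called 0 of 12441 genes (0.0%) with limma, and 800 had an unadjusted p under 0.05. Of the 19 tested cone phototransduction genes 16 were lower at 75 cones (84.2%), against 56.1% of all tested genes. Rod genes were lower for 13 of 13 and transcription factors for 11 of 12. Without 75-cone replicate 3 these counts were 15 of 19, 12 of 13 and 9 of 12, against 54.9% of all tested genes. The rod marker mean was 6.33 to 6.59 at 50 cones and 5.62 to 5.85 at 75 cones, and its part in the difference was not tested. If a transcript came from cones alone, on a linear scale, the larger cell number would raise it by 0.58 log2 units. Whether the 95% interval of the fitted difference lay under that value rested on 75-cone replicate 3: it did for 10 of the 12 genes whose position is given next with that array, and for 2 of 12, Guca1a and Fam161a, without it. For Opn1mw the difference was -0.74 (-1.96 to 0.48) with it and -0.15 (-1.42 to 1.11) without it. For Pde6h it was -1.13 (-2.36 to 0.11) and -0.53 (-1.80 to 0.75), and for Opn1sw -2.13 (-4.10 to -0.16) and -0.94 (-2.85 to 0.96). The 75-cone group belongs to the mixtures that the labels set apart from the titration, so this set and the cell number cannot be told apart.

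**Figure D3:**
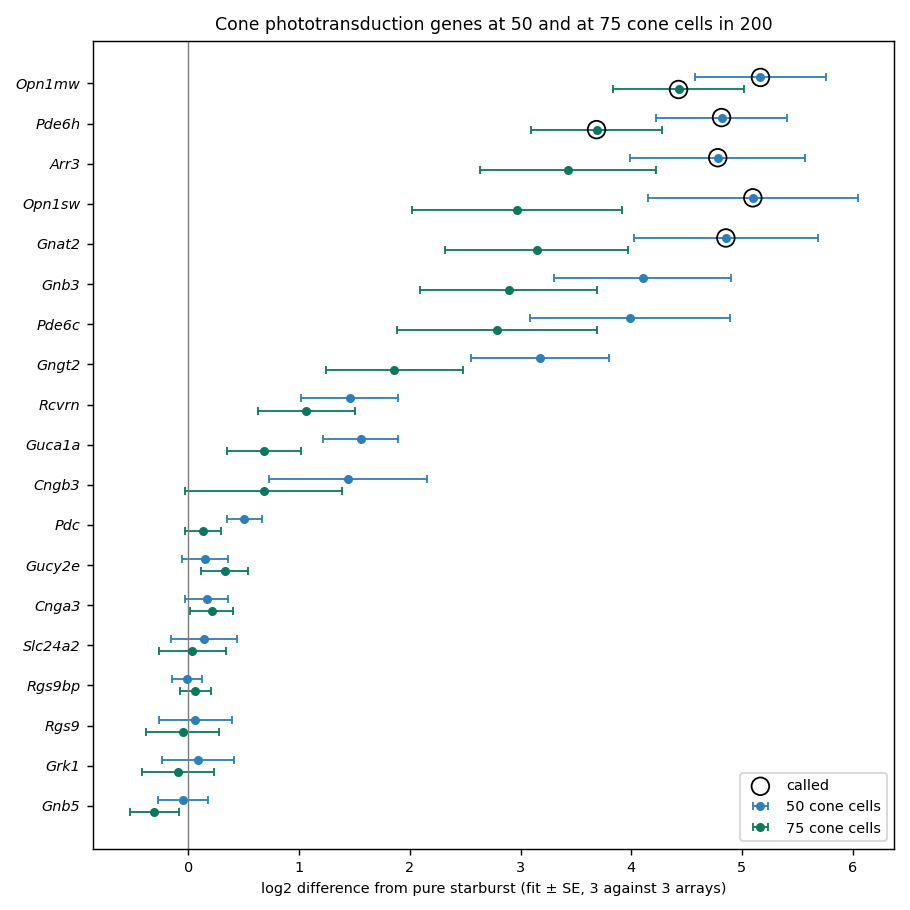
Difference from the starburst arrays in log2 units (horizontal axis) for the 19 tested cone phototransduction genes (vertical axis) at 50 and at 75 cones, with bars for the SE of the fit and a ring where the gene was called. The 75-cone value is the lower one for 16 of 19 genes, and rings mark 5 genes at 50 cones and 2 at 75 cones.

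The size of the rise can be set on the scale between the pure groups. For 12 genes, the 11 listed cone genes that were at least 2 log2 units higher with 200 cones than with 0, and Fam161a, added after its values were seen, linear values were placed between the starburst mean (0%) and the pure cone mean (100%). At 50 cones, 25% of the cells, the median over the 12 genes was 40.2%, 36.0% and 33.0% on the 3 arrays. At 75 cones, 37.5% of the cells, it was 22.3%, 22.1% and 2.35%. Pde6h was the highest at 50 cones (47.6% ± 5.21, SD, n = 3), followed by Guca1a (45.2% ± 6.76) and Opn1mw (43.9% ± 4.40), while Rcvrn (17.5% ± 3.39), Cngb3 (22.7% ± 5.62) and Fam161a (23.2% ± 7.37) were the lowest. At 75 cones Opn1mw was the highest (29.7% ± 16.8, or 39.3% without replicate 3) and Cngb3 the lowest (8.82% ± 8.74). Gene means exceeded the stated cell share for 9 of 12 genes at 50 cones and were below it for 12 of 12 at 75 cones (for all but Opn1mw without replicate 3). The median of the gene means at 50 cones, 38.6%, became 30.9% with medians of the pure arrays in place of means. At 75 cones it was 15.2%, and 22.1% without replicate 3. These positions are a description, since the 3 pure cone arrays differ among themselves (Opn1mw 11.13, 11.34 and 10.18). Those arrays also carried rod transcripts, with rod marker means of 7.03, 6.95 and 8.23.

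**Figure D4:**
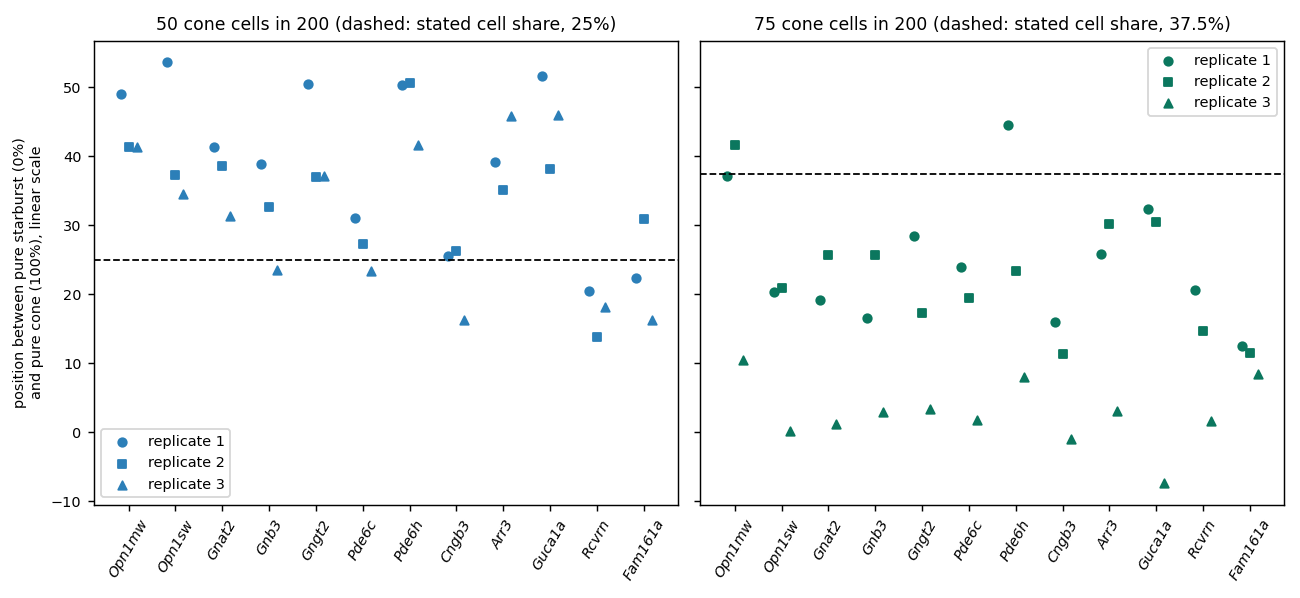
Position of each mixture array between the mean of the starburst arrays (0%) and of the pure cone arrays (100%) on the linear scale (vertical axis) for 12 genes (horizontal axis), with the point's shape for the replicate and the stated cell share as a dashed line. Most points at 50 cones lie above the line at 25%, and replicate 3 at 75 cones lies between -7.45% and 10.4%.

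A wider set of genes high on the pure cone arrays was taken from arrays outside this comparison. It held 111 genes that were called higher in the 3 pure cone arrays than in 3 arrays of adult Arc-EGFP amacrine cells by at least 2 log2 units, a contrast in which 2.51% of all tested genes were called higher. Cell type and mouse line cannot be told apart in this contrast either. The rod marker means on the pure cone arrays were 7.03, 6.95 and 8.23, so the set need not hold cone genes alone. The part of rod transcripts in it was not tested. Over the mixtures 5 of these passed, the same 5 as above, and their median difference was 0.60, against -0.01 over all tested genes. They were higher than starburst cells in 95 of 111 cases (85.6%, against 47.4% of all tested genes), and 23 had all mixtures above all starburst arrays, where 1.67% of all tested genes did. Without 75-cone replicate 3 this was 44 (2.60% of all tested genes). The median was 0.94 at 50 cones and 0.33 at 75 cones, each against the same starburst arrays, and 98 of the 111 were lower at 75 cones (88.3%). Without 75-cone replicate 3 the median at 75 cones was 0.46 and 92 were lower (82.9%). Of the 111, 59 were above the detection level on all starburst arrays, 23 on 1 or 2, and 29 on none. Among those 29, 6 became detectable with both mixtures, 16 at 50 cones and 6 at 75 cones.

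The cone-high genes outside the lists included several with large differences that did not pass. The acyltransferase Mogat1 read 2.97, 3.56 and 3.21 without cones, 7.36, 6.84 and 6.22 at 50 cones and 5.30, 6.66 and 4.35 at 75 cones (2.88 ± 0.89, adjusted p = 0.374). The phosphatase Ppm1j read 3.27 to 3.41 without cones and 4.49 to 6.92 in the mixtures (2.67 ± 0.67, 0.195; 0.0401 with the block over 27 arrays). Both had all mixtures above all starburst arrays. The secreted peptide Apela differed by 2.57 ± 0.64 (0.194), the potassium channel subunit Kcne2 by 2.16 ± 0.54 (0.195), the small heat shock protein Hspb6 by 2.16 ± 0.64 (0.349) and the scaffold protein Mpp6 by 1.89 ± 0.58 (0.374). Mpp6 and Ppm1j passed in the fit of the 9 arrays alone (0.0119 and 0.0191), and Mpp6 there with the replicate block too (0.0171). Fabp7, Arhgdib, Jchain and Mfge8 differed by 1.45 to 1.72, and none passed. Kcne2 passed with the block over 27 arrays (0.0164) and without 75-cone replicate 3 (0.0375).

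**Figure D5:**
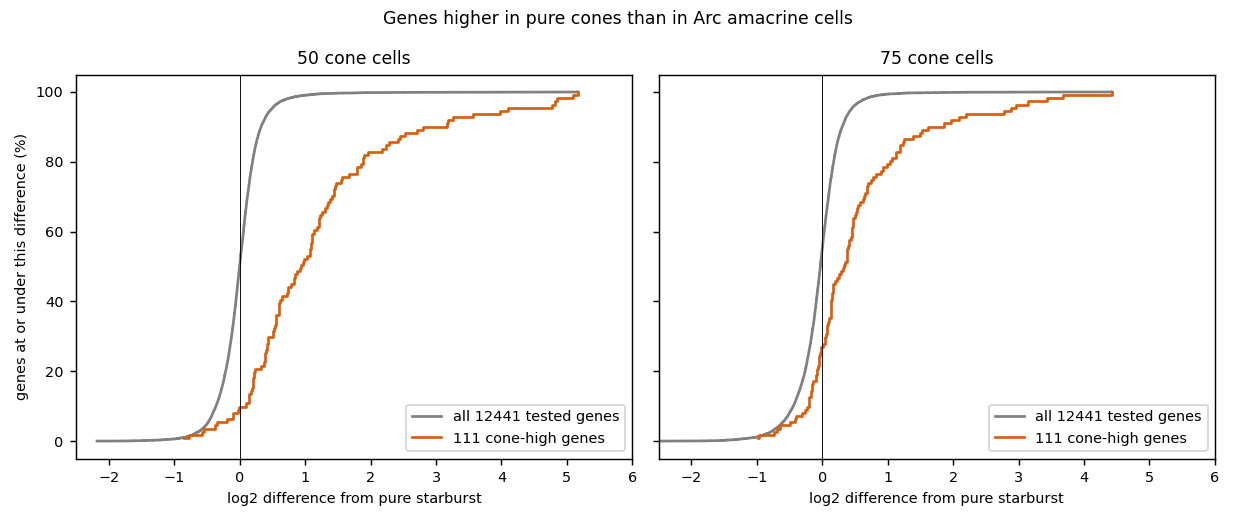
Cumulative share of genes in percent (vertical axis) at or under a log2 difference from starburst cells (horizontal axis), at 50 and at 75 cones, for the 111 cone-high genes and for all 12441 tested genes. The cone-high curve lies to the right in both panels, with medians of 0.94 at 50 cones and 0.33 at 75 cones.

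On the starburst side of the mixtures no listed gene passed the test. Of 16 tested starburst genes 0 passed, with a median difference of -0.12, and 0 of 15 genes of amacrine cells and GABA. The vesicular acetylcholine transporter Slc18a3 read 10.62, 10.77 and 10.59 without cones, 10.50, 10.46 and 10.50 at 50 cones and 10.30, 10.98 and 10.70 at 75 cones. The groups overlapped, and the difference was -0.08 ± 0.20 (adjusted p = 0.978). Starburst cells made up 75% and 62.5% of the mixtures, which on the log2 scale averages -0.55. The 95% intervals of Slc18a3 (-0.49 to 0.33), Slc10a4 (-0.38 to 0.32), Sox2 (-0.39 to 0.33) and calretinin Calb2 (-0.28 to 0.41) lay above that value, 4 of 7 genes looked at. Those of Isl1, Calb1 and Gad1 contained it. The 7 genes were chosen by hand from the starburst and the amacrine and GABA lists, so they do not stand for those lists. The genes behind the reporters were dim. Chat read 3.81 to 4.58 without cones and differed by 0.07 ± 0.19, and Chrnb4 was under the detection level on all starburst arrays and above it on 2 of 6 mixtures (0.51 ± 0.38, adjusted p = 0.868).

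The 4 genes that fell were in none of the gene lists. Fgl1, a secreted fibrinogen-like protein, read 5.76, 5.81 and 6.04 without cones, 4.58, 3.61 and 3.89 at 50 cones and 3.97, 3.81 and 3.59 at 75 cones. It fell by 1.96 ± 0.32 on the log2 scale (adjusted p = 0.0103, 0.0603 without starburst replicate 3), where a share of 62.5% starburst cells on a linear scale gives -0.68. The others were dim: Olfr826, an olfactory receptor and so part of the set behind the detection level, fell by 1.66 ± 0.30 (0.0179), Papolb, a testis poly(A) polymerase, by 1.19 ± 0.20 (0.0126) and Pdlim3, a PDZ and LIM protein, by 1.00 ± 0.14 (0.00169). All 4 lay lower on all mixtures than on all starburst arrays, as did 2.11% of the tested genes. The 3 dim ones were under the detection level on all 6 mixtures and above it on 2, 1 and 1 starburst arrays. Olfr826 lost its call without starburst replicate 1 (0.159) or 2 (0.16), Papolb without replicate 2 (0.0637), and these and Pdlim3 in the fits of the 9 arrays alone. Pdlim3 stood at the fold threshold and crossed it in several settings. Among lists of other cells, 0 of 14 bipolar, 0 of 7 horizontal, 0 of 17 Müller glia and astrocyte, 0 of 7 ganglion cell, 0 of 4 microglia and blood, 0 of 4 vascular and 0 of 3 pigment epithelium genes passed. The same held for 18 immediate early and stress genes, 11 housekeeping genes and 4 nicotinic receptor genes. The Müller glia list had a median of -0.30, and its marker Rlbp1 was uneven, at 3.65, 6.75 and 4.14 without cones and 3.50, 3.46 and 6.5 at 50 cones.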

How the data were processed

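RNA of sorted retinal cells was amplified and hybridised to 27 mouse gene arrays in 9 groups of 3. The groups follow the cell numbers in their titles, 200 cells in all, except the Arc group, whose titles give none. What the authors deposited is log2 expression from RMA, run with the R package oligo (R 2.11.1, build mm9) per the submitters' processing notes, where the arrays normalized together are not given. Of 22347 probe sets 19446 had 1 gene symbol, 735 several and 2166 none, and the last 2 kinds were left out. The probe set with the highest mean stood for each of 133 genes with several. Genes above the median of all values (2.83) on at least 3 arrays were tested, 12441 of 19301.

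One limma 3.58.1 fit (R 4.3.3) held a mean for each of 9 groups over the 27 arrays, so that all groups shared 1 estimate of spread (18 residual degrees of freedom, prior 3.42). The 50-cone and 75-cone means were averaged and compared with the starburst mean, two-sided, with Benjamini-Hochberg adjustment over all tested genes. Positions used linear values. The arrays carry no read depth, and their number limits the precision. P-values measure the spread between these samples. The fit was tested on simulated data with 12441 genes for this comparison: 34%, 94%, 100% and 100% of 50 genes with a true log2 difference of 1, 2, 3 and 4 were called, and 3 of 12241 unchanged genes. A true difference of 1 equals the fold threshold, so many such genes fall under it whatever the precision. The changed genes were drawn at random and shifted alike on all mixture arrays. These rates do not carry over to genes with a wide spread, such as Opn1sw, Gnb3 and Pde6c.

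Replicate numbers mark shared pools for the titration groups by the design text, and are not stated to do so for the 75-cone group. The correlation of deviations between same-numbered arrays was 0.0045 to 0.0581 over 9 pairs, and -0.0441 to 0.017 over 18 others. Block results stand beside the named genes and counts whose calls over both mixtures they change.

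The groups and gene lists were chosen with earlier results of these data known. Genes named are all measured cone phototransduction and photoreceptor factor genes, Chat, Chrnb4 and the cell type markers; per other list up to 3 called members and 1 bright uncalled one; the 15 higher and 10 lower called genes with the largest difference and no overlap; and the 10 cone-high genes in no list with the largest difference. Predicted genes were only counted. Alternatives covered the filter, probe set rule, arrays fitted, scaling, eBayes trend, replicate block, detection level and each array left out; those for the counts within the cone lists were chosen after seeing the data.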

Additional observations from a re-analysis of the deposited data

Results flagged for a closer look

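Of 34 genes checked over the 6 mixture arrays, 13 had 1 outlying array. Its gap to the next array, as a share of the whole range, exceeded Dixon's 95% critical value. Chance gives such a gap in about 1 of 20 groups of like arrays. The 6 arrays come from both mixtures, so this rate need not hold for them. The genes share their arrays, so these gaps are not independent. In 11 of the 13 the array was 75-cone replicate 3, as the lowest: Opn1mw read 7.89 there, Opn1sw 4.98, Gnat2 5.67, Arr3 5.75, Pde6c 3.43, Guca1a 8.67, Rcvrn 6.37, Gnb5 7.23, Hspb6 3.33, Jchain 3.19 and Kcne2 4.45. The other two were Apela, lowest on 75-cone replicate 2 at 3.28, and the dim cyclase Gucy2e, highest on 75-cone replicate 1 at 2.91. The reason for the low cone signal on 75-cone replicate 3 was not tested.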

How the results depend on the processing

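Of 2168 values of the 115 named and tested genes under the alternatives, 2108 kept their direction and side of the threshold, 32 lost a call, 28 gained one and 0 reversed. Both mixtures gave 16 calls with the replicate block over 27 arrays, 4 with the block over 9 arrays, 3 with the 6 mixtures as 1 group, and 8 to 15 with an array left out. At 50 cones the 6 calls became 20 and 13 with the 2 blocks, 12 after quantile normalization, and 3 to 11 with an array left out. At 75 cones the 6 calls became 11 and 0 with the blocks, 3 with only the 9 arrays, and 2 to 9 with an array left out. The 0 calls between the mixtures became 0 to 2 with an array left out. Of the cone phototransduction genes 8 and 2 were higher with the blocks, 2 with only the 9 arrays, 2 with the mixtures as 1 group and 2 to 9 with an array left out. Of the cone-high genes these were 12 and 3 with the blocks, 8 after quantile normalization, 2 with the mixtures as 1 group, and 3 to 12 with an array left out. Newly detectable genes over all 6 mixtures numbered 0 at the 99th percentile, a count that rested on 75-cone replicate 3. They numbered 9 to 29 with an array left out, which at a fixed level can only keep or raise the count. The median position at 50 cones was 30.9% with medians of the pure arrays and 29.8% to 43.8% with an array left out, and at 75 cones 12% to 18.1% with an array left out. Scaling moved the median of all genes by -0.01 and 0.02. Causes were not tested. A true log2 difference of 1 was often missed on simulated data with 3 arrays a group, in part because it equals the fold threshold of the call. The simulation had no term for the number of cone cells. Dim genes near the detection level have no firm order.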

Other observations

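The following 6 genes did not pass the test and were picked after their values were seen, so they are given as values and describe no group. Sparc, a matrix protein of glia and vessels, read 5.47, 5.03 and 4.0 on the starburst arrays and 2.92 to 3.86 on the mixtures (adjusted p = 0.167, 0.0445 without starburst replicate 3). Agpat2, an enzyme of lipid synthesis, read 4.47, 5.16 and 2.89 against 2.29 to 2.66 (0.0574, 0.00017 without starburst replicate 3). Tnfsf9, a ligand of immune cells, read 5.84, 5.26 and 4.41 against 2.33 to 4.18 (0.202). The pericyte gene Rgs5 read 4.52, 3.49 and 2.51 against 2.15 to 2.51 (0.536). The class I antigen light chain B2m read 5.46, 5.47 and 3.66 against 2.76 to 3.95 (0.269), and S100b of glia 5.27, 2.67 and 3.02 against 2.34 to 2.73 (0.519). The starburst and mixture arrays overlapped for B2m and S100b, and starburst replicate 3 was the lowest of its group for 5 of the 6.

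At an adjusted p under 0.05 with a log2 difference smaller than 1, Tstd3 (-0.87, adjusted p = 0.0353) and the endosomal syntaxin Stx12 (-0.79, 0.0126) were lower on all mixtures than on all starburst arrays. Ina, a neurofilament protein, was lower on all mixtures too (-0.97, 0.194). Tstd3, Stx12, Ina and Chrna5, given next, were also picked after their values were seen. Chrna5, a nicotinic receptor subunit, read 2.17, 2.36 and 2.76 without cones and 4.44, 3.67 and 2.43 at 50 cones. Its difference over both mixtures was 0.78 (adjusted p = 0.89).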
